A study of Rattus norvegicus with 18 samples.

Results

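A set of 7 rapidly induced transcription factor genes was followed through rat calf muscle at 2 ages and under 2 diets, out of 32883 gene identifiers in the count table. The genes were chosen by identifier and chromosome as Fos (ENSRNOG00000008015), Jun (ENSRNOG00000026293), Junb (ENSRNOG00000042838), Egr1 (ENSRNOG00000019422), Atf3 (ENSRNOG00000003745), Myc (ENSRNOG00000004500) and Klf4 (ENSRNOG00000016299), with earlier results of these data known. All 7 were on the stated chromosome, and 7 of 7 were among the 14646 genes that passed the filter on low counts. The animals were male Brown Norway rats (BN/SsNOlaHSD) fed ad libitum (AL) until 2 months of age, when each was moved to single housing and given either the AL diet or caloric restriction (CR). The restricted rats received 55% of the intake of age-matched AL rats as 1 meal offered in the morning. RNA was sequenced from the whole gastrocnemius, the large calf muscle, of 6 young AL rats killed at 6 months, 6 old AL rats killed at 28 months and 6 old CR rats killed at 28 months. No group of young restricted rats was analysed here, so restriction could be compared with free feeding at 28 months only. The hour of tissue collection is not given in the sources used here.

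Immediate early genes are transcribed within minutes of a stimulus, without new protein synthesis, and their messages and proteins are short-lived. Fos, Jun and Junb encode subunits of the dimeric factor AP-1, and Atf3 encodes a related leucine-zipper protein that is induced by cell stress. Egr1 and Klf4 encode zinc-finger factors, and Myc encodes a factor that promotes growth and ribosome production. In skeletal muscle, contraction, stretch and injury are known stimuli of several of these genes.

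In the Rnor_6.0 coordinates of the count table, Fos lies on chromosome 6 (109300433 to 109303299, plus strand), Junb on chromosome 19 (26092974 to 26094756, minus strand) and Egr1 on chromosome 18 (27657628 to 27661429, plus strand). Jun (114011189 to 114014277) and Klf4 (72283313 to 72287669) are both on the minus strand of chromosome 5. Atf3 lies on the minus strand of chromosome 13 (109817728 to 109849632) and Myc on the plus strand of chromosome 7 (102586313 to 102591240). Jun and Junb each consist of 1 exon block, and the summed exon length ran from 1589 bases for Fos to 3130 bases for Egr1. None of the 7 shared a base with another gene of the table on either strand (0 overlapping genes for each), and the nearest neighbour was 2880 bases away, beside Junb. Reads were counted without regard to strand.

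The promoters of Klf4 and Junb are shown because these were the genes whose levels passed the test between groups. Both run 5′ to 3′ on the strand of the gene and end at the base before the RefSeq start site in the GRCr8 assembly, which is a different assembly from that of the count table. The Klf4 sequence is chr5:75078593-75078842 (minus strand) and the Junb sequence is chr19:40080876-40081125 (plus strand). Capitals mark CCAAT and TATAAA on the gene's strand, and TATAAA on the opposite strand where it reads as TTTATA.
Klf4: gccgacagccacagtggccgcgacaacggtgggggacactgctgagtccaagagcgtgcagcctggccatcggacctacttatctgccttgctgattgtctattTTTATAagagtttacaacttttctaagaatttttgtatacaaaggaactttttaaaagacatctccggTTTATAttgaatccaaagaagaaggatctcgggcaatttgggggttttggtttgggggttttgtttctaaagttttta
Junb: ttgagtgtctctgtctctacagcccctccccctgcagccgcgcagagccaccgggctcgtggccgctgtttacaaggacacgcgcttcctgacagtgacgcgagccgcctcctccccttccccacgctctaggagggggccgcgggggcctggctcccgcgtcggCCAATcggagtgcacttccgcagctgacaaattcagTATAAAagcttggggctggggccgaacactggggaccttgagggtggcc

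The Junb promoter held CCAAT 85 to 81 bases and TATAAA 49 to 44 bases before the start site. The Klf4 promoter held no CCAAT, and TATAAA occurred only on the opposite strand, 146 to 141 and 78 to 73 bases before the start site. Bases G and C made up 66.0% of the Junb sequence and 43.2% of the Klf4 sequence. Among 33469 rat promoters of 250 bases, searched on both strands, CCAAT occurred in 34.0% and TATAAA in 12.9%. The searched letters of the cyclic AMP response element (TGACGTCA, 1.59% of promoters), of the AP-1 element (TGACTCA or TGAGTCA, 4.05%) and of the CArG box (1.5%) were not found in either sequence. The Egr1 promoter held 2 CArG boxes, each read on both strands, 105 to 96 and 83 to 74 bases before the start site, and a CCAAT at 228 to 224 bases. A match describes these letters only, and 3 of the 7 genes had a promoter entry in the table used. The RefSeq start sites were taken as given. Where transcription starts in this muscle was not examined, so part of a sequence shown may itself be transcribed.

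Total counts per library ranged from 19940496 to 24474703 in the young AL group, from 17335401 to 23351719 in the old AL group and from 20174316 to 27432767 in the old CR group. On the first principal component of all tested genes, which held 30.4% of the variance, old AL rat 8 (108.9) and old CR library 8828 (75.5) stood apart from the other libraries, of which the highest reached 8.25. The scaling factor of edgeR's TMM method was 1.44 for rat 8 and 1.12 for library 8828. Libraries of each group carried a separate run of numbers, and a difference in handling between runs, if there was one, cannot be told apart from the group. The names of 3 old CR columns (8826, 8827 and 8828) gave the group but did not match a single rat, and they entered as replicates without a rat number. Markers of muscle and of other cell types were not checked, because the sources used here do not pair identifiers with symbols.

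Expression is given as CPM, the count of a gene scaled to a common library total with edgeR's TMM factors. In whole muscle, fewer cells of a type and less RNA per cell cannot be told apart. Divided by exon length, Jun was the most abundant of the 7 in the young AL group, at 84.9 ± 26.5 CPM per kilobase (SD, n = 6). Fos followed at 72.1 ± 46.2, Junb at 63.6 ± 48.9, Atf3 at 48.2 ± 15.3 and Klf4 at 34.5 ± 10.7 CPM per kilobase. Egr1 at 10.6 ± 10.2 and Myc at 4.32 ± 2.10 CPM per kilobase were the least abundant. The range of each gene over the rats overlapped that of its neighbour in this order. Within single rats Klf4 exceeded Egr1 in 6 of 6, whereas Junb exceeded Atf3 in 3 of 6, and the remaining neighbours kept the order of their means in 4 or 5 of 6 rats.

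In the old AL group the order by mean per kilobase was Jun (68.6), Atf3 (25.4), Junb (24.7), Fos (23.2), Klf4 (15.2), Egr1 (3.65) and Myc (2.80), again with overlapping ranges of all neighbours, although Jun exceeded Atf3, and Klf4 exceeded Egr1, in 6 of 6 rats. Egr1 exceeded Myc in only 2 of 6 old AL rats, and its median was the lower one (1.58 against 2.89 CPM per kilobase). In the old CR group Klf4 took the second place, at 28.3 ± 10.1 CPM per kilobase, below Jun at 86.5 ± 28.1. Fos (20.4), Atf3 (17.6), Junb (17.5), Egr1 (2.87) and Myc (2.58) came after it. Here the ranges of Jun and Klf4 did not overlap, nor did those of Junb and Egr1. Egr1 exceeded Myc in 3 of 6 old CR libraries, again with the lower median (1.97 against 2.51 CPM per kilobase). By their means Jun was first in all 3 groups and Egr1 and Myc took the last 2 places, while Fos, Junb, Atf3 and Klf4 changed places between them.

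**Figure D1:**
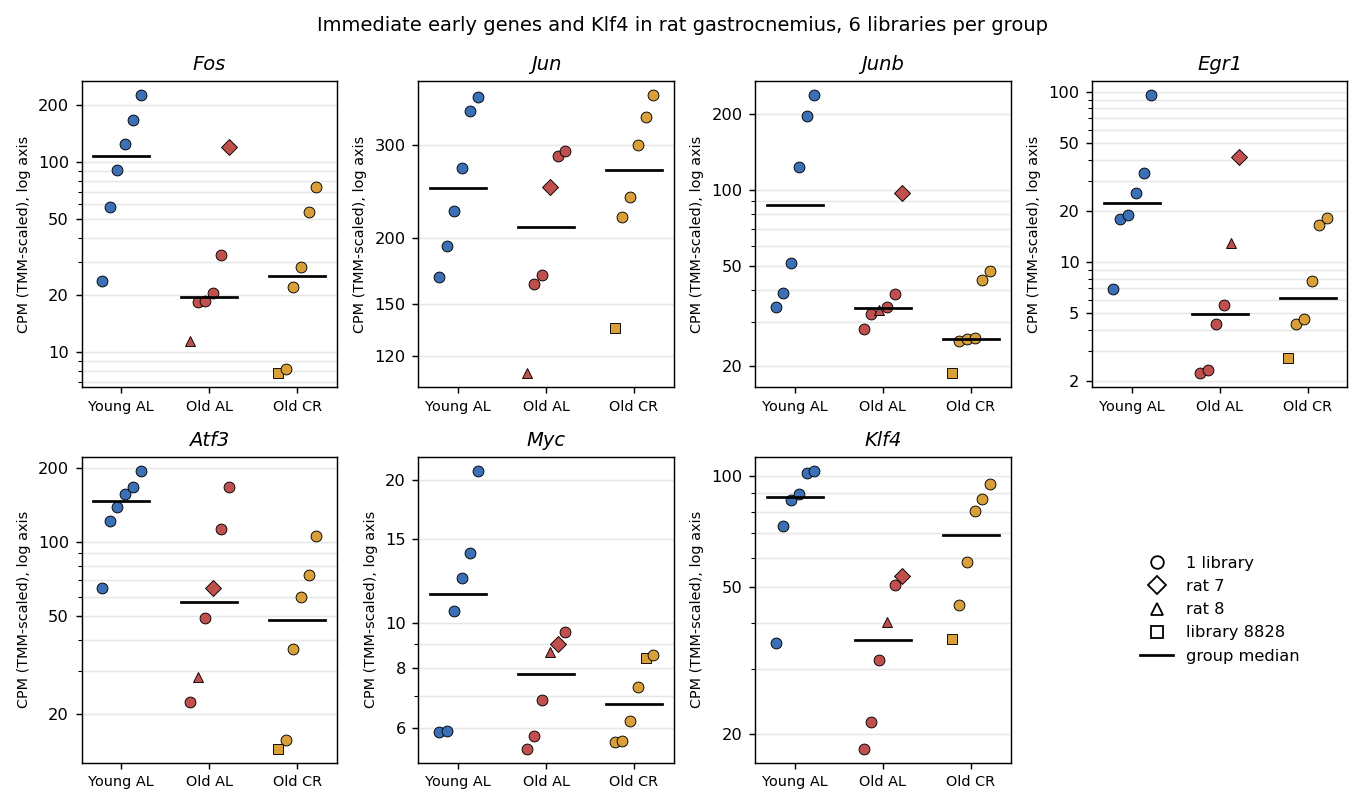
Level of each gene in every library, as TMM-scaled CPM on a log axis, for 6 young AL, 6 old AL and 6 old CR libraries. Each point is 1 library, the bar is the group median, and rat 7, rat 8 and library 8828 have their own symbols. For Klf4 the old CR median (69.3 CPM) is nearer to the young AL median (87.8) than to the old AL median (35.9). For Fos, Junb and Egr1 rat 7 is the highest of the old AL group.

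Ageing under AL feeding was addressed by comparing old AL with young AL rats. Klf4, a zinc-finger factor known for its part in differentiation and in pluripotency reprogramming, fell 2.27-fold, and it was the 1 member called lower (adjusted p not above 0.05, fold not under 1.5). By the same rule 1.52% of all tested genes were called lower (222 genes). The other 6 members had lower means in the old AL group and were not called. The log2 fold changes of the 7 ran from −1.64 to −0.31 with a median of −1.18, whereas the median over all tested genes was 0.01. At an unadjusted p of at most 0.05 there were 5 of 7 members, against 22.3% of all genes. In no member did the 6 old AL rats lie wholly outside the young AL range, which happened for 2.40% of all genes.

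Klf4 was at 35.3, 87.8 and 103 CPM in the lowest, median and highest young AL rat, and at 18.2, 35.9 and 53.6 CPM in the old AL rats. Young rat 6 was the low one of its group, and the other 5 young rats, at 73.0 CPM or more, were above every old AL rat. The log2 fold change was −1.18 ± 0.30 (SE; edgeR adjusted p = 0.0350, 95% interval −1.82 to −0.54). With rat 8 and library 8828 left out it was −1.21 (edgeR adjusted p = 0.0214). A fit on the 12 libraries of these 2 groups alone gave an edgeR adjusted p of 0.0586, and leaving out any 1 of young rats 1, 3 and 5 or old AL rats 9, 10 and 12 gave edgeR adjusted p values from 0.0642 to 0.0735, so the call was lost in each of these fits.

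Fos, the AP-1 subunit that must pair with a Jun protein to bind DNA, had a lowest, median and highest level of 23.7, 107 and 225 CPM in young AL rats. In old AL rats it was at 11.5, 19.6 and 119 CPM. In 4 old AL rats Fos was below every young rat, in rat 12 it was at 32.5 CPM, and rat 7 alone exceeded the young median. The log2 fold change was −1.64 ± 0.65 (SE; edgeR adjusted p = 0.147), not past the threshold. Rat 7 had the lowest total count of the 18 libraries (17335401), followed by rat 8 (17943903), which was the lowest of the group for Fos. A relation of Fos to depth was not tested. With rat 7 left out the difference was −2.49 (edgeR adjusted p = 0.0279). Without young rat 3, the highest of its group, it was −1.32 (edgeR adjusted p = 0.296).

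Junb, an AP-1 subunit that in many settings opposes the growth-promoting action of Jun, was at 34.2, 87.2 and 238 CPM in the lowest, median and highest young AL rat. The old AL rats were at 28.2, 33.9 and 97.6 CPM, with 5 of them between 28.2 and 38.6. The young group was split, since rats 2, 3 and 5 were at 123 CPM or more and the other rats at or below 51.1. The log2 fold change was −1.36 ± 0.46 (SE; edgeR adjusted p = 0.0891). It was −1.76 without rat 7 (edgeR adjusted p = 0.0331), −1.13 without young rat 3 (edgeR adjusted p = 0.200) and −1.01 without young rat 5 (edgeR adjusted p = 0.213). The adjusted p was 0.161 by edgeR on the 12 libraries of these groups and 0.0279 by DESeq2's Wald test on all libraries.

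Egr1, a factor induced through growth-factor signalling and contraction, was at 6.92, 22.2 and 95.9 CPM in the young AL group. In the old AL group it was at 2.23, 4.94 and 41.2 CPM, the lowest value resting on 44 reads. Rat 7 was above 5 of the 6 young rats, while 4 old AL rats were below all of them. The log2 fold change was −1.53 ± 0.72 (SE; edgeR adjusted p = 0.220), without rat 7 it was −2.58 (edgeR adjusted p = 0.0371), and without young rat 3, the high one of its group, it was −0.84 (edgeR adjusted p = 0.541).

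With rat 7 left out, then, 4 of the 7 members were called lower (Fos, Junb, Egr1 and Klf4), against 1.57% of the 14817 genes then tested. Rat 7 was the highest old AL rat for these same 4 genes, which also deviated together, so the calls are not separate. Leaving out instead any 1 of young rats 1, 3 and 5 or old AL rats 9, 10 and 12 gave 0 members called. DESeq2 called 2 members lower (Junb and Klf4), against 2.86% of its tested genes. The DESeq2 adjusted p of Klf4 was 0.00397.

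Atf3 was at 65.1, 147 and 195 CPM in the young AL group and at 22.4, 57.0 and 167 CPM in the old AL group. Rats 11 and 12 were well inside the young range, rat 7 was at its lower end and 3 old AL rats were below it. Its log2 fold change of −0.92 ± 0.50 (SE) did not pass (edgeR adjusted p = 0.291). Myc was at 5.88, 11.5 and 20.9 CPM in young and at 5.41, 7.77 and 9.56 CPM in old AL rats, a difference of −0.62 ± 0.26 (SE; edgeR adjusted p = 0.170). Every old AL rat was below the young median of Myc, but young rats 1 and 2 were as low as the old rats. Jun, the AP-1 subunit that can also act as a homodimer, was at 169, 248 and 369 CPM in young and at 111, 210 and 291 CPM in old AL rats. Its groups overlapped over most of their range, with a log2 fold change of −0.31 ± 0.27 (SE; edgeR adjusted p = 0.528, 95% interval −0.87 to 0.25).

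**Figure D2:**
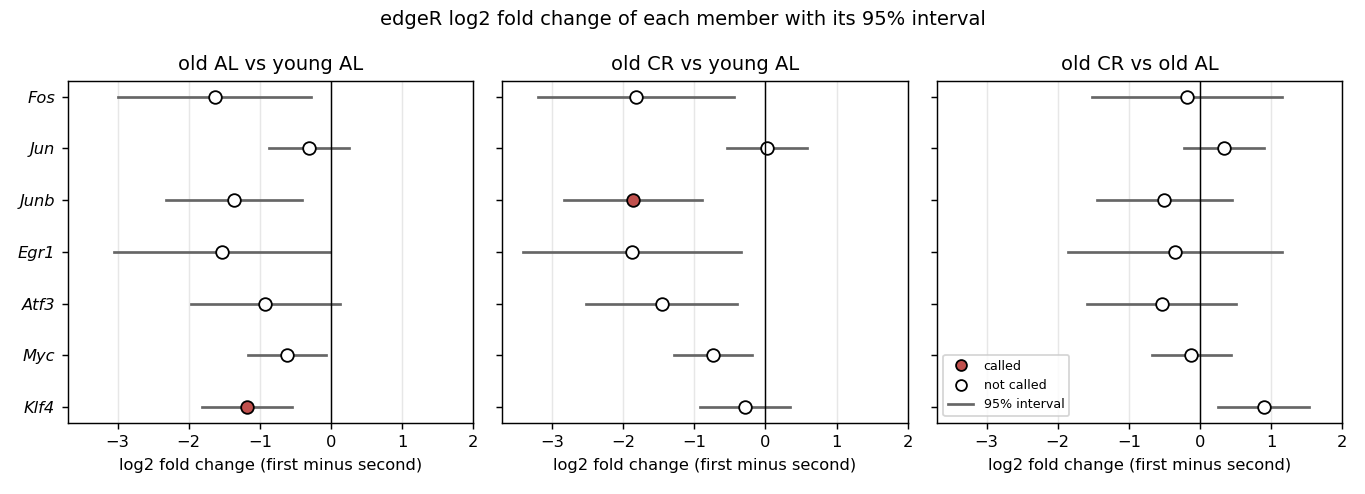
Log2 fold change of each gene with its 95% interval from the edgeR fit over 18 libraries, in 3 panels for old AL against young AL, old CR against young AL and old CR against old AL. Filled points were called (adjusted p not above 0.05, fold not under 1.5): Klf4 in the first panel (−1.18) and Junb in the second (−1.86).

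Old CR rats were next compared with the same young AL rats, so both comparisons share the young group. Junb fell 3.64-fold and was the 1 member called lower, against 1.22% of all tested genes (178 genes). Fos, Egr1, Atf3 and Myc had lower means and were not called, and neither Jun nor Klf4 was. The median log2 fold change of the 7 was −1.46, and over all tested genes it was 0.00. At an unadjusted p of at most 0.05 there were 5 of 7 members, against 19.3% of all genes, and the groups overlapped in all 7, where 3.26% of all genes had no overlap. DESeq2 called 1 member (Junb), against 2.46% of its tested genes called lower.

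In old CR rats Junb was at 18.8, 25.7 and 47.7 CPM in the lowest, median and highest library. In 4 of the 6 libraries it was below every young AL rat, and only rats 13 and 14, at 47.7 and 43.8 CPM, were inside the lower part of the young range. The log2 fold change from young AL was −1.86 ± 0.46 (SE; edgeR adjusted p = 0.0362, 95% interval −2.83 to −0.89). It was −1.75 with rat 8 and library 8828 left out (edgeR adjusted p = 0.0479). Leaving out any 1 of young rats 3 and 5, old CR rats 14 and 15, or libraries 8826, 8827 and 8828 gave edgeR adjusted p values from 0.0520 to 0.0978.

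Klf4 in the old CR group was at 36.1, 69.3 and 95.2 CPM. Every old CR library was inside the young AL range, which ran from 35.3 to 103 CPM, but its lower end was rat 6 alone. Against the other 5 young rats, at 73.0 CPM or more, 3 old CR libraries were lower (8826, 8827 and 8828, at 58.3, 44.7 and 36.1 CPM). The log2 fold change from young AL was −0.29 ± 0.30 (SE; edgeR adjusted p = 0.645), and its 95% interval of −0.91 to 0.34 leaves room for differences in either direction. That Klf4 passed the test in old AL and not in old CR rats is not itself a difference between them, and that difference did not pass (edgeR adjusted p = 0.142).

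Fos was at 7.78, 25.2 and 74.0 CPM in old CR rats, with 3 libraries below every young rat, and its log2 fold change was −1.82 ± 0.65 (SE; edgeR adjusted p = 0.139). Egr1 was at 2.75, 6.17 and 18.04 CPM, also with 3 libraries below every young rat. Its log2 fold change was −1.88 ± 0.73 (SE; edgeR adjusted p = 0.170), and without young rat 3 it was −1.20 (edgeR adjusted p = 0.413). For both genes rats 13 and 14 were the high ones of the group, and library 8828 was the lowest.

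Atf3 was at 14.5, 48.4 and 106 CPM, and 4 of the 6 old CR libraries were below every young rat. Its log2 fold change of −1.46 ± 0.51 (SE) was not past the threshold (edgeR adjusted p = 0.130). Myc was at 5.59, 6.74 and 8.53 CPM, a narrow band in which 2 libraries were just below the young range and 4 inside its lower part, with a log2 fold change of −0.74 ± 0.26 (SE; edgeR adjusted p = 0.136). Jun was at 135, 269 and 372 CPM, and the log2 fold change of 0.03 ± 0.27 (SE; edgeR adjusted p = 0.973) changed sign when single libraries were left out (−0.09 to 0.16).

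The effect of CR at 28 months was addressed by comparing old CR with old AL rats. No member was called by edgeR, where 1.38% of all tested genes were called in either direction (202 genes). One member, Klf4, had an unadjusted p of at most 0.05, against 15.3% of all genes, and in no member were the groups apart, against 2.06% of all genes. DESeq2 called 0 of the 7 as well, against 2.89% of its tested genes in either direction. The median log2 difference of the 7 was −0.18, and −0.02 over all tested genes.

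Klf4 had the highest difference of the 7, with a mean of 66.8 ± 24.0 CPM in old CR and 35.9 ± 14.7 CPM in old AL rats (SD, n = 6). Rats 13, 14 and 15 and library 8826, from 58.3 to 95.2 CPM, were above every old AL rat, and libraries 8827 (44.7) and 8828 (36.1) were among them. The log2 difference was 0.89 ± 0.30 (SE; edgeR adjusted p = 0.142, 95% interval 0.26 to 1.53), and it was higher in old CR in every alternative run, with edgeR and DESeq2 adjusted p values from 0.0578 to 0.273.

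The remaining members had smaller differences. The log2 difference of Jun was 0.33 ± 0.27 (SE; edgeR adjusted p = 0.603) and that of Junb −0.50 ± 0.45 (SE; edgeR adjusted p = 0.650). In all, 4 old CR libraries had less Junb than any old AL rat (28.2 CPM or more), 3 of them at 25.3 to 25.9 CPM and library 8828 at 18.8 CPM. The difference was −0.54 ± 0.50 for Atf3 (SE; edgeR adjusted p = 0.660) and −0.12 ± 0.26 for Myc (SE; edgeR adjusted p = 0.874). For Fos it was −0.18 ± 0.64 (SE; edgeR adjusted p = 0.924) and for Egr1 −0.35 ± 0.72 (SE; edgeR adjusted p = 0.865). The sign of both turned when rat 7 was left out, to 0.67 for Fos and 0.70 for Egr1.

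The spread between rats of 1 group was wide for most of these genes. The biological coefficient of variation that edgeR fitted, which is the relative spread between rats beyond counting error, was 0.813 for Egr1, 0.732 for Fos, 0.584 for Atf3 and 0.529 for Junb. The median over all tested genes was 0.236, and these 4 genes lay above 97.2%, 96.1%, 92.5% and 90.3% of the tested genes. Klf4 (0.363), Jun (0.327) and Myc (0.323) were closer to it, above 76.6%, 71.4% and 70.5% of the genes. Within a group the highest library of Fos exceeded the lowest by 9.50-fold in young AL, 10.4-fold in old AL and 9.50-fold in old CR rats. For Egr1 this ratio was 13.8, 18.5 and 6.57, whereas for Myc it was 3.56, 1.77 and 1.53. Myc thus varied least among the aged rats, while Fos varied most in old CR and Egr1 in both AL groups. The standard errors of the fold changes followed the same order, from 0.26 for Myc to 0.73 for Egr1, against a median of 0.19 over all genes.

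The same rats tended to be high or low for several genes. Rat 7 was the highest of the old AL group for 4 members and among the upper 3 for 7 of 7. In the old CR group rat 13 was the highest for 4 members and rat 14 for 2, and library 8828 was the lowest for 6, all but Myc. In the young group rat 5 was the highest for 3 members and rats 2 and 3 for 2 each, while rat 6 was the lowest for 3.

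**Figure D3:**
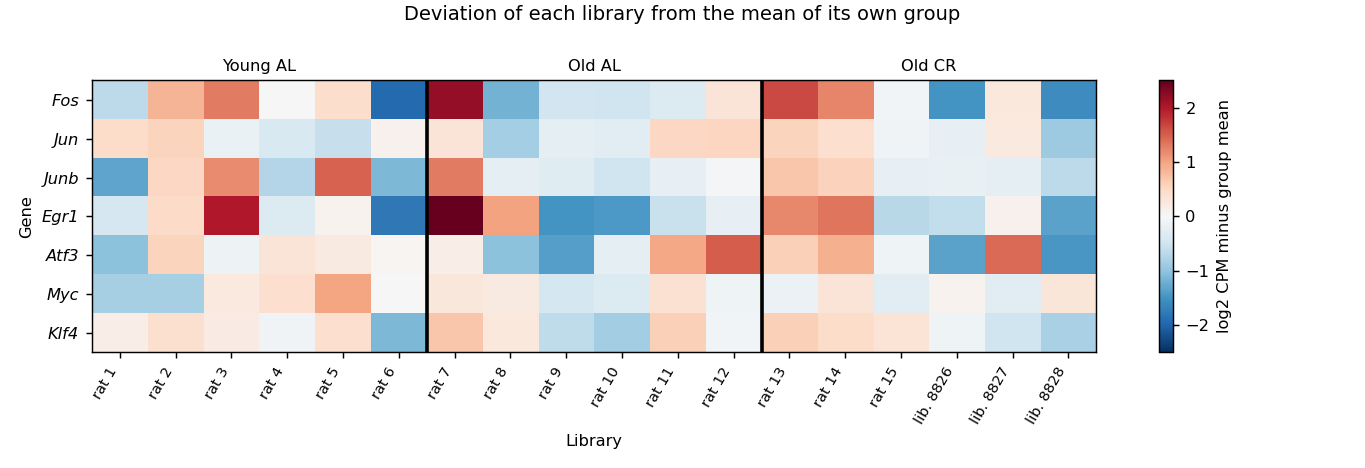
Deviation of each library (columns, by group) from the mean of its own group, in log2 CPM, for each gene (rows). Red is above and blue below the group mean; rat 7 of the old AL group and rats 13 and 14 of the old CR group are red for Fos, Junb, Egr1 and Klf4, and rat 6 and library 8828 are blue for these genes.

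Whether the members deviated together was examined over all 18 libraries after each group's mean had been subtracted from the log2 CPM, so that differences between groups did not enter. Of 21 pairs, 20 had a positive Pearson's r, and 7 passed at a permutation p adjusted over the 21 pairs by both Pearson's and Spearman's coefficient. These 7 joined Fos, Junb, Egr1 and Klf4 in all 6 of their pairs, and Jun with Atf3. Without rat 8 and library 8828, the 6 pairs among Fos, Junb, Egr1 and Klf4 passed and that of Jun and Atf3 did not. How the counts of positive and passing pairs compare with those among other genes was not tested.

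Fos and Egr1 had r = 0.81 and rho = 0.80 (permutation p = 0.00021 and 0.00024, adjusted 0.00147 and 0.00252, n = 18). Fos and Junb had r = 0.79 and rho = 0.81 (permutation p = 8e-05 and 7e-05, adjusted 0.00147 for both, n = 18). Junb and Egr1 had r = 0.75 and rho = 0.71 (permutation p = 0.00016 and 0.0010, adjusted 0.00147 and 0.00525, n = 18). These were the 3 closest pairs. Without rats 6 and 7, the libraries farthest from the median of Fos, r was 0.65 for Fos and Egr1 (adjusted permutation p = 0.0563) and 0.66 for Fos and Junb (0.0154). Without rats 5 and 7, r was 0.80 for Junb and Egr1 (adjusted permutation p = 0.00357).

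Klf4 deviated with Egr1 at r = 0.74 and rho = 0.71 (permutation p = 0.00203 and 0.0035, adjusted 0.00928 and 0.0122, n = 18). With Fos it had r = 0.67 and rho = 0.70 (permutation p = 0.0046 and 0.00289, adjusted 0.0161 and 0.0121, n = 18). With Junb it had r = 0.63 and rho = 0.71 (permutation p = 0.00221 and 0.00037, adjusted 0.00928 and 0.00259, n = 18). Leaving out the 2 libraries farthest from the median of the other gene gave r = 0.77 with Egr1 (adjusted permutation p = 0.0154), 0.47 with Fos (0.232) and 0.55 with Junb (0.0661), so the relation of Klf4 to Fos and Junb rested in part on those libraries.

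Jun and Atf3 had r = 0.64 and rho = 0.66 (permutation p = 0.0103 and 0.00619, adjusted 0.0310 and 0.0186, n = 18). Without rat 8 and library 8828, both low for Jun, r was 0.47 (adjusted permutation p = 0.186), so r rested partly on these libraries. Within the young AL group alone it was −0.32 (exact permutation p = 0.597, n = 6), against 0.86 in old AL and 0.84 in old CR rats (exact permutation p = 0.0417 and 0.0333, n = 6 each). Fos and Atf3 passed by rho only (0.60, adjusted permutation p = 0.0390), with r = 0.56 (adjusted permutation p = 0.0778).

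Within single groups of 6 the closest pairs remained positive. Fos and Junb had r = 0.80 in young AL, 0.94 in old AL and 0.89 in old CR rats (exact permutation p = 0.0528, 0.0264 and 0.0403). Fos and Egr1 had r = 0.94, 0.67 and 0.92 (exact permutation p = 0.00556, 0.144 and 0.0264, unadjusted). Myc took part in no pair that passed over the 18 libraries. Its one negative relation was with Jun (r = −0.44, permutation p = 0.0666, adjusted 0.140, n = 18), and within single groups r was −0.98 in young AL, 0.24 in old AL and −0.39 in old CR rats (exact permutation p = 0.00139, 0.650 and 0.451, n = 6 each, not adjusted over the pairs and groups).

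**Figure D4:**
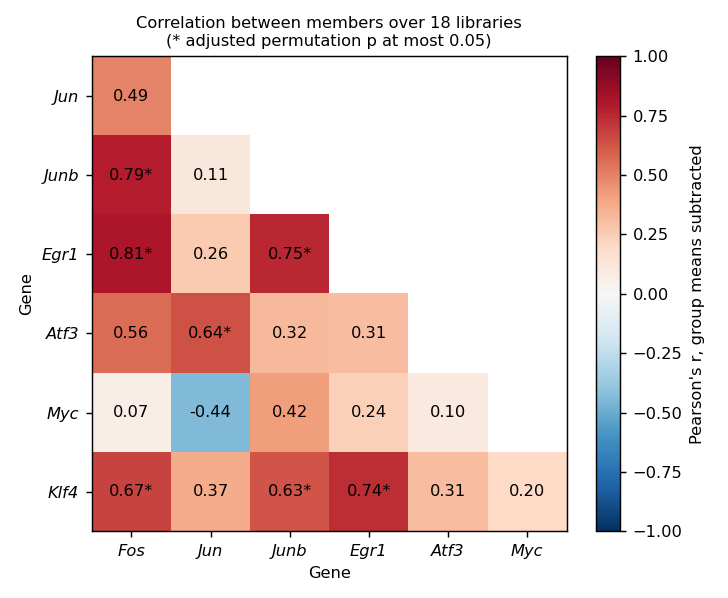
Pearson's r between each pair of genes over 18 libraries, after each group's mean was subtracted from the log2 CPM. Asterisks mark an adjusted permutation p of at most 0.05; the block of Fos, Junb, Egr1 and Klf4 runs from 0.63 to 0.81, and Myc has no marked pair.

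Ranked against all other tested genes by Pearson's r of log2 CPM over the 18 libraries, Fos was in place 2 of 14645 for Egr1 and in place 3 for Junb. Egr1 was in place 6 and Junb in place 7 for Fos, and Klf4 was in place 52 for Egr1. With the group means subtracted these places were 8 (Fos for Egr1), 8 (Fos for Junb), 9 (Egr1 for Fos), 11 (Junb for Fos) and 33 (Klf4 for Egr1). Jun had its nearest fellow member, Atf3, only in place 533 then. These places describe 18 libraries that share depth and preparation and carry no test.

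The level of Klf4 relative to each other member was compared between groups after the values had been seen. A ratio within a library does not depend on how libraries are scaled, and counts were not divided by length here. Relative to Junb, Klf4 was at 0.55 to 1.46 in the 6 old AL rats, at 0.43 to 2.52 in the 6 young AL rats and at 1.76 to 3.13 in the 6 old CR libraries. All 6 old CR libraries were thus above every old AL rat, and 5 of them were inside the wide young range. In no other of the 18 such comparisons of Klf4 were the groups apart, so this ratio is the most extreme of those seen. The mean log2 ratio was 1.09 ± 0.29 in old CR and −0.26 ± 0.55 in old AL rats (SD, n = 6), a difference of 1.35 (2-sided exact permutation p = 0.00216, which is the smallest that 924 arrangements can give). Adjusted over the 21 ratios between members in 3 comparisons (63 tests), the exact permutation p was 0.136, which did not pass. With 6 libraries per group, however, 1 ratio alone at the smallest possible p cannot adjust below 0.136 over 63 tests. The adjustment therefore could not decide whether this ratio differed, and its unadjusted p only restates that the aged groups were apart. Leaving out any 1 aged library gave 1.23 to 1.51, and without rat 8 and library 8828 the difference was 1.48.

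None of the 63 tests had an adjusted exact permutation p of at most 0.05, and 13 had an unadjusted one of at most 0.05. The lowest adjusted value was 0.136, the limit for 1 ratio alone. Several ratios at the smallest possible p could have passed together, so the outcome was not fixed in advance. Only that of Klf4 and Junb between the aged groups reached it, and the next exact permutation p was 0.00649. No ratio was thus shown to differ. The further differences of Klf4 are given as values only. Between old AL and old CR rats its log2 ratio was higher in old CR by 1.46 relative to Atf3, 1.08 relative to Fos, 1.03 relative to Myc, 0.77 relative to Egr1 and 0.58 relative to Jun. For Myc, 5 of 6 old CR libraries were above every old AL rat. From young AL to old CR the difference was 1.67 relative to Fos, 1.45 relative to Egr1, 1.45 relative to Atf3, 1.24 relative to Junb, 0.32 relative to Myc and −0.30 relative to Jun. Relative to Fos and to Egr1, 5 of 6 old CR libraries were above every young rat. From young AL to old AL the difference was −0.88 relative to Jun, −0.70 relative to Myc, −0.11 relative to Junb, −0.02 relative to Atf3, 0.59 relative to Fos and 0.68 relative to Egr1.

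**Figure D5:**
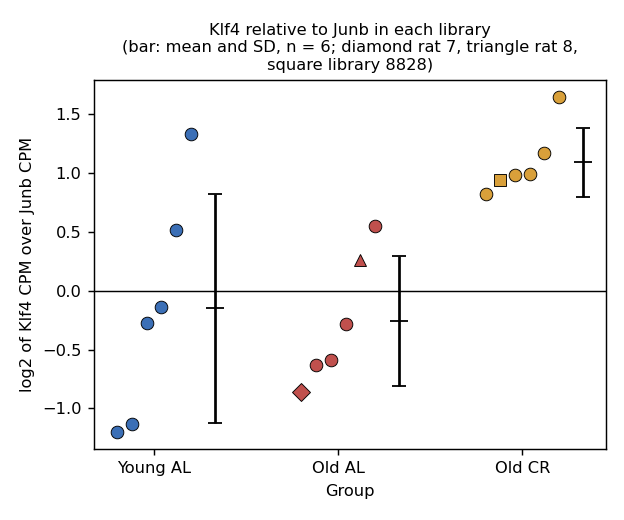
Log2 of Klf4 CPM over Junb CPM in each library by group, with the group mean and SD (n = 6) beside the points. All 6 old CR points (0.82 to 1.64) lie above the old AL points (−0.86 to 0.55), and the young AL points span both (−1.20 to 1.33).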

How the data were processed

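Gastrocnemius RNA of 18 rats was depleted of ribosomal RNA and sequenced from strand-specific paired-end libraries. The authors trimmed reads with Cutadapt 1.2.1, aligned them with STAR 2.3.0e and, per the file headers, counted them per gene with featureCounts 1.6.4 on release 96 of the Rnor_6.0 annotation, with no strand option. The deposited values are raw counts per gene, and each column was assigned to its group by its name. The members and lists were chosen with earlier results of these data known. The genes named are the 7 members. The lists of related genes and of cell type markers were not analysed here, because identifiers are not paired with symbols in the tables used.

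Counts were tested with edgeR 4.0.16 in R 4.3.3 (quasi-likelihood test, filterByExpr, TMM scaling, 1 fit over 18 libraries and 3 groups), with Benjamini-Hochberg adjustment over 14646 genes. Calls needed an adjusted p not above 0.05 with a fold not under 1.5. Total counts per library are given with the results. Correlations used log2 CPM (prior count 2) less the group mean and 100000 permutations of rats within groups, adjusted over 21 pairs. Ratios between members, tested by exact permutation and adjusted over 63 tests, and the omission of rat 7 from the correlations were chosen after the data had been seen. Alternatives were DESeq2 1.42.0, other scaling, filters and shrinkage, other thresholds, a fit on 12 libraries and the omission of libraries. Promoter sequences came from RefSeq (GRCr8), with 250 bases upstream of the start site. Scripts were tested on simulated data.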

Additional observations from a re-analysis of the deposited data

Results flagged for a closer look

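The highest or lowest library of a group of 6 was compared with its nearest neighbour, as the gap between them divided by the whole range of the group, for the 7 genes in 3 groups (21 groups of values). A library stood apart where this exceeded Dixon's critical value for 6 samples, a rate of about 1 in 20 (1.05 of the 21) for independent, normally distributed values. The CPM were skewed towards high values and the genes were correlated, so that rate does not hold here. There were 4 such values on the CPM scale. Rat 7 of the old AL group stood apart for Fos (0.805, with 119 CPM against 32.5 CPM in the next rat), for Junb (0.850, with 97.6 against 38.6 CPM) and for Egr1 (0.726, with 41.2 against 12.9 CPM). Rat 3 of the young AL group stood apart for Egr1 (0.702, with 95.9 against 33.4 CPM). In each case the library was the highest of its group. On the log2 scale, examined after the values had been seen, rat 7 still stood apart for Junb (0.747) but not for Fos (0.557) or Egr1 (0.402), nor did rat 3 for Egr1 (0.402). On that scale young AL rat 6, the lowest of its group, stood apart for Klf4 (0.676). For the other 4 genes rat 7 was not apart from its group, although it was also the highest of the group for Klf4, at 53.6 CPM against 50.5 CPM in the next rat.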

How the results depend on the processing

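Over the alternatives, 559 values were recomputed, of which 531 kept their direction and, where a test was rerun, their side of the threshold. The other values were no longer past it (14), came past it (4) or turned in direction (10). The ratio of Klf4 over Junb was recomputed 13 times without a test. From young AL to old AL, the 1 member called (Klf4) became 0 with edgeR's adjusted p held to 0.01 and 0 in the fit on the 12 libraries compared, and it became 2 by DESeq2 (Junb and Klf4). Leaving out single libraries gave 0 to 4, with 4 without rat 7. From young AL to old CR, the 1 member called (Junb) became 0 with edgeR's adjusted p held to 0.01, and leaving out single libraries gave 0 to 1. Between the aged groups the count was 0 in each of the 28 alternatives. The count over all genes moved more between tools, with 497, 290 and 202 genes called by edgeR in the 3 comparisons and 988, 703 and 444 by DESeq2, and with 258, 441 and 130 in fits on 12 libraries each. The pairs that passed by Pearson's r were 7 at first, 4 with the 2 libraries farthest from the median of the first gene of each pair left out (3 of the 7, and Fos with Atf3), 6 without rat 8 and library 8828 (all among the 7) and 8 without rat 7 (the 7, and Fos with Atf3). Without rat 7, 7 pairs passed by both coefficients, with Fos and Atf3 in place of Fos and Klf4. Reversed values came from leaving out single libraries: Jun from young AL to old CR ranged from −0.092 to 0.162, and between the aged groups Fos ranged from −0.608 to 0.673 and Egr1 from −0.677 to 0.703. The cause was not tested. The lowest count of any member was 41 reads, for Egr1 in an old AL rat. No paired analysis was possible because the groups share no replicate numbers.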
